A study of Mus musculus with 80 samples.

Results

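The 9 genes described here encode transcription factors that set or adjust the identity of hepatocytes. They are the CCAAT/enhancer-binding proteins Cebpa, Cebpb and Cebpd, the forkhead factors Foxa1, Foxa2 and Foxa3, and Onecut1, Creb3l3 and Prox1. They were chosen by symbol, and all 9 were found among the 20105 genes of the deposited count table. Nuclear RNA came from the livers of female HEP-INTACT mice, in which hepatocyte nuclei carry a purification tag, and of female MAC-INTACT mice, in which macrophage nuclei carry it. Tagged nuclei were captured from fasted and from ad libitum fed mice, with 4 libraries in each of 16 groups. Fasted mice lost their food at zeitgeber time (ZT) 12, when the lights go off, and were sampled 3, 8, 16 and 24 h later, at ZT 15, 20, 4 and 12, alongside fed mice at the same clock times. A further 16 libraries held unpurified liver nuclei pooled from 4 mice, 1 pool per line, feeding state and time. The labels give neither the promoter that drives the tag nor the number of mice behind a tagged library, and they do not say that libraries of a group came from separate animals, so a p-value here speaks of the spread among libraries, which may be technical in part.

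C/EBP proteins are leucine zipper factors. C/EBPα keeps adult hepatocytes differentiated, while C/EBPβ and C/EBPδ are switched on by hormones and cytokines such as glucagon, glucocorticoids and interleukin-6. FoxA proteins are pioneer factors that bind closed chromatin and open hepatocyte enhancers, and Onecut1 and Prox1 are homeodomain factors needed for liver development. CREB3L3, also called CREBH, is held in the endoplasmic reticulum membrane of hepatocytes until proteases release it, and it drives genes of triglyceride handling and the hormone gene Fgf21 during fasting.

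Library totals ran from 12597786 to 30089561 counts for hepatocyte nuclei, from 14968505 to 44694933 for macrophage nuclei, and from 13246494 to 35514304 for the pools. Levels are CPM (each count as a share of its library, scaled by TMM over all 80 libraries), and differences are log2 values from edgeR with a standard error, called at an adjusted p below 0.05. The 12 Kupffer cell and macrophage markers summed to 4289.6 to 7586 CPM in tagged macrophage nuclei, against 245 to 339 CPM in the pools of that line. In tagged hepatocyte nuclei the same markers summed to 31.503 to 90.1 CPM, against 236 to 331 CPM in their pools, and none of them was at 0 in any library. The 10 hepatocyte markers were present throughout the macrophage libraries, with sums of 4079 to 20335 CPM in tagged nuclei and 14450.3 to 24631 CPM in the pools. Libraries said here to stand apart are the 3 of 64 tagged ones with the lowest median correlation of log2 CPM within their group. They are macrophage 3 h fasted replicate 3 (0.930), macrophage 16 h fasted replicate 1 (0.961) and hepatocyte 16 h fasted replicate 3 (0.962). No cutoff was set, and macrophage 16 h fasted replicate 3 came next at 0.963. Calls that rest on the 3 lowest are given with and without them, as are some of the uncalled log2 fold changes that they moved.

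Among the members, the level per kilobase of gene in fed hepatocyte nuclei was highest for Prox1, with a median of 14.7 CPM per kilobase over 16 libraries (range 7.32 to 19.1). Onecut1 followed with a median of 10.6 CPM per kilobase (3.13 to 32.99), Creb3l3 with 10.1 (7.30 to 14.9) and Cebpa with 7.80 (5.72 to 11.8). The forkhead genes came next, with medians of 4.78 CPM per kilobase for Foxa2, 3.51 for Foxa3 and 3.36 for Foxa1, and then Cebpb with 2.34. Cebpd was lowest at a median of 0.296 CPM per kilobase (0.124 to 0.604), and its range did not touch that of any other member. Every other pair of neighbours in this order had ranges that overlapped. The length is the whole gene span, which is nearly all exon for the C/EBP genes, each with 1 exon, and mostly intron for Prox1, so nuclear precursor RNA weighs differently in them.

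In fed macrophage nuclei the order per kilobase was Prox1 (5.23 CPM per kilobase), Cebpa (4.40), Creb3l3 (3.72), Cebpb (2.94), Onecut1 (2.63), Foxa2 (1.57), Foxa3 (1.52), Cebpd (0.986) and Foxa1 (0.902), all medians over 16 libraries. The 3 C/EBP genes took higher places in this order than in that of hepatocyte nuclei, and neighbouring ranges overlapped. Between fed hepatocyte and fed macrophage nuclei 8 of 9 members were called, where 82.7% (42.7% higher and 40.0% lower) of 14011 tested genes were called. Foxa1 was 3.37-fold higher in hepatocyte nuclei (log2 difference 1.75 ± 0.13 (SE), adjusted p = 1.28e-17), Foxa2 2.98-fold, Onecut1 3.14-fold, Creb3l3 2.66-fold, Prox1 2.44-fold, Foxa3 2.30-fold and Cebpa 1.65-fold. Cebpd ran the other way and was 3.37-fold lower in hepatocyte nuclei (-1.75 ± 0.20 (SE), adjusted p = 9.48e-12). For Cebpb the difference was -0.25 ± 0.19 with an interval of -0.63 to 0.13 (adjusted p = 0.226). Cell type goes with mouse line and with the run of library numbers in these samples, so these cannot be told apart here.

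In tagged macrophage nuclei 6 members were lower than in the pools of the same line and Cebpd was higher, where 77.3% (37.2% higher and 40.0% lower) of 13679 tested genes were called. The lower ones were Foxa1 (log2 difference -1.48 ± 0.14), Foxa2 (-1.27 ± 0.13), Onecut1 (-1.27 ± 0.25), Prox1 (-1.19 ± 0.15), Creb3l3 (-1.12 ± 0.12) and Foxa3 (-1.06 ± 0.12), with adjusted p values between 6.52e-12 and 3.05e-05. Their mean levels in tagged macrophage nuclei stood at 0.357 (Foxa1) to 0.477 (Foxa3) of those in the pools, and that of albumin (Alb), a hepatocyte marker, stood at 0.433. These members thus lay close to a hepatocyte marker in how far they fell below the pools, and the part of hepatocyte RNA in their macrophage levels was not tested.

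Over all conditions together Cebpd was higher in tagged macrophage nuclei, at 2.38 ± 0.738 CPM (SD, n = 32), than in the pools of that line, at 1.62 ± 1.16 CPM (SD, n = 8) (log2 difference 0.69 ± 0.21 (SE), adjusted p = 0.00304). Fed tagged means were 2.06 to 2.41 CPM, each above the fed pool of its time. Fasted tagged means were 1.95 to 3.08 CPM, below the fasted pool at 3 and 24 h and above it at 8 and 16 h. Cebpa and Cebpb did not pass the test against these pools, with log2 differences of -0.28 ± 0.16 (interval -0.59 to 0.03) and 0.24 ± 0.25 (interval -0.25 to 0.74). Without replicate 3 of every group Cebpa was lower, at -0.38 (adjusted p = 0.00251). In tagged hepatocyte nuclei the differences from the pools were small: 3 of 9 members were called, all higher, where 49.5% (28.9% higher and 20.5% lower) of 13065 genes were called. They were Foxa3 (log2 difference 0.43 ± 0.13 (SE), adjusted p = 0.00858), Creb3l3 (0.36 ± 0.08 (SE), adjusted p = 5.19e-04) and Foxa2 (0.34 ± 0.13 (SE), adjusted p = 0.0248). The median over all genes tested in that comparison was 0.12. Mean levels of the 3 called members stood at 1.31 (Foxa2) to 1.37 (Foxa3) of those in the pools. The hepatocyte markers stood at 1.03 (Alb) to 1.35 (Asgr1), so these members lay close to the upper end of the markers. Foxa2 lost its call when replicate 3 of every group was left out. In RNA of bulk nuclei, fewer nuclei of a type and less RNA per nucleus cannot be told apart.

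**Figure D1:**
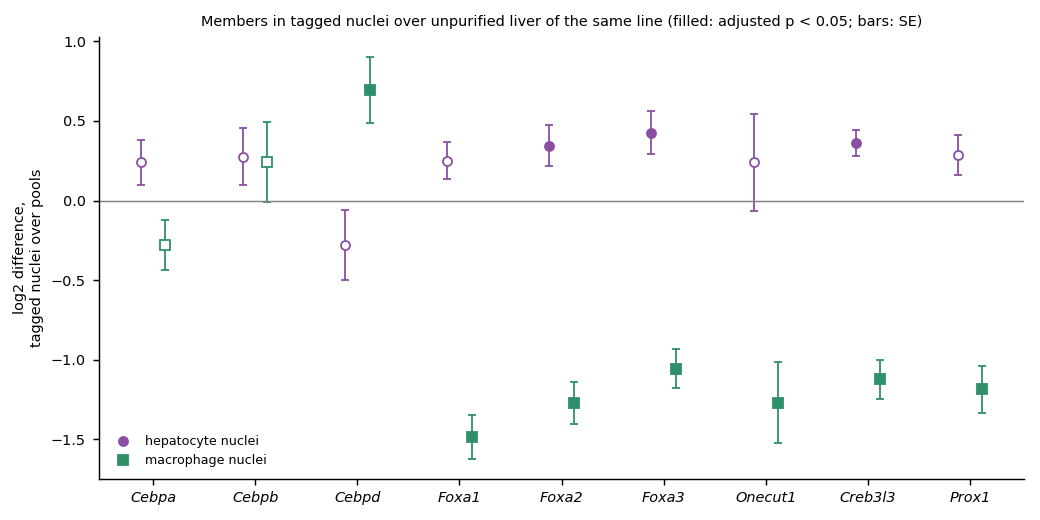
Log2 difference of each member between tagged nuclei and unpurified liver pools of the same line, hepatocyte line (circles) and macrophage line (squares), with SE bars and filled symbols at an adjusted p below 0.05. In the macrophage line 6 of 9 members lie below -1, while Cebpd lies at 0.69.

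The first question of the design is what food withdrawal does in hepatocytes at each clock time. Of the 9 members, 6 were called at 3 h (4 higher and 2 lower in fasted mice), 5 at 8 h (2 and 3), 1 at 16 h (higher) and 6 at 24 h (3 and 3). Over all 12942 genes tested the shares called at these times were 39.9% (19.5% higher and 20.4% lower), 38.7% (18.0% higher and 20.7% lower), 18.1% (9.55% higher and 8.55% lower) and 24.0% (11.6% higher and 12.4% lower). The median log2 fold change of the members was -0.22 at 3 h, -0.13 at 8 h, 0.17 at 16 h and -0.79 at 24 h, against medians of -0.03, -0.02, 0.01 and -0.01 over all genes tested. The members thus did not move as a block. Cebpd, Creb3l3, Cebpb and Foxa3 supplied the rises, and Onecut1, Foxa2, Cebpa and Foxa1 the falls.

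**Figure D2:**
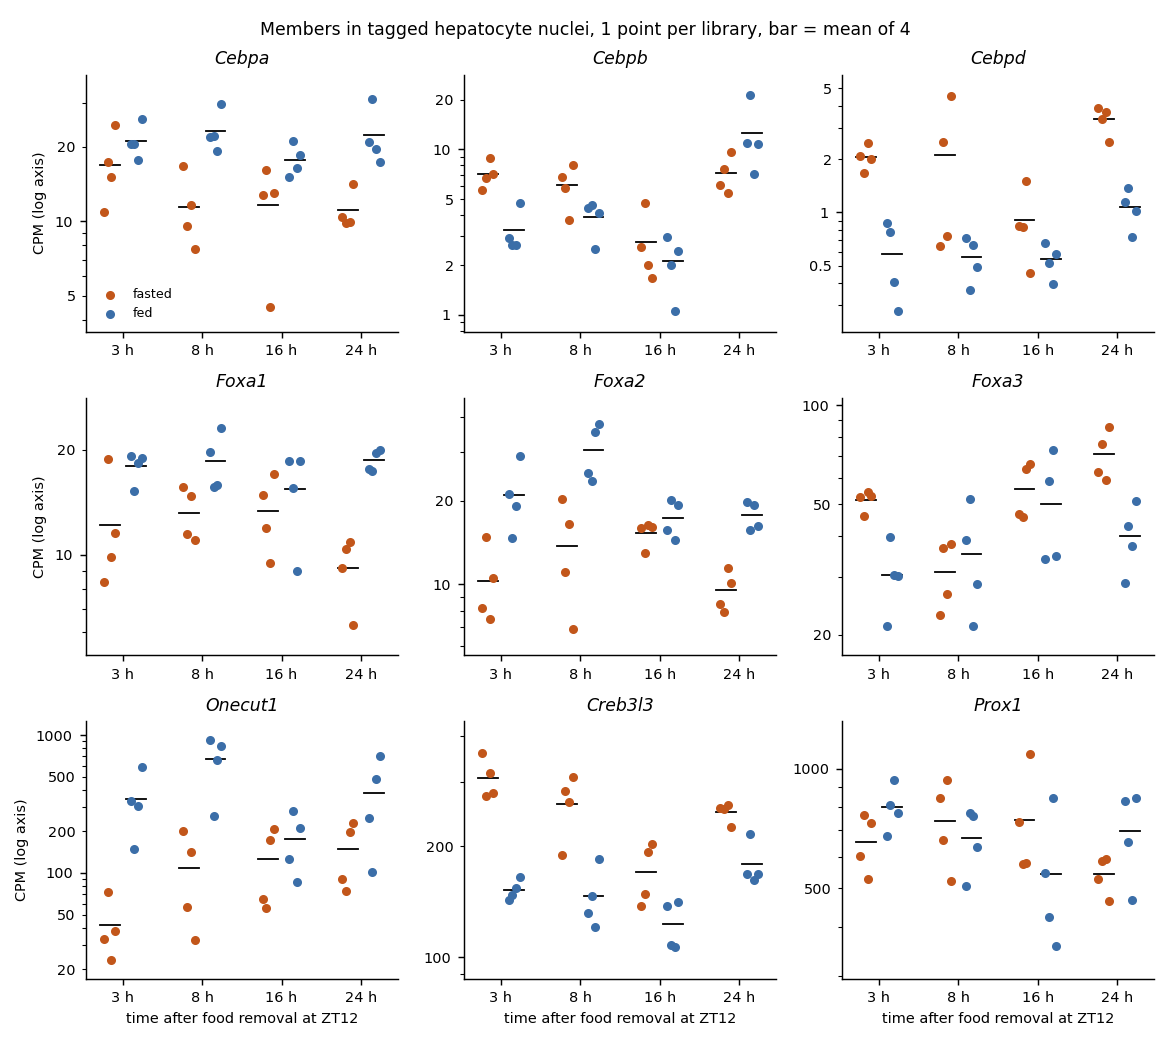
CPM on a log axis for each member in tagged hepatocyte nuclei, fasted (left, orange) and fed (right, blue) at 3, 8, 16 and 24 h after food removal, 1 point per library and a bar at the mean of 4. Onecut1 at 3 h spans 23.6 to 72.9 CPM in fasted and 150.3 to 584 CPM in fed libraries, and Prox1 overlaps at every time.

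Onecut1 had the largest fold changes among the members at 3 and 8 h, while at 16 and 24 h Cebpd had larger ones. This cut-homeodomain factor lies at chr9:74861921-74889647 (mm10, plus strand), and the noncoding gene Gm20649 covers all of it on the same strand in GENCODE vM21. Gm20649 has no count of its own here, so its reads could be held in those of Onecut1 whether or not counting used the strand. The part of Gm20649 in the Onecut1 values was not tested. At 3 h Onecut1 had 33.03, 72.9, 23.6 and 38.2 CPM in fasted hepatocyte libraries, against 335, 150.3, 305 and 584 CPM in fed ones. At 8 h it had 201, 56.3, 143 and 32.7 CPM in fasted libraries, against 915, 260.4, 665 and 831 CPM in fed ones. Every fasted library lay below every fed library at both times, although the libraries of a group spread by several times among themselves. Onecut1 fell 7.83-fold at 3 h (log2 fold change -2.97 ± 0.64 (SE), adjusted p = 5.25e-04) and 5.91-fold at 8 h (-2.56 ± 0.63 (SE), adjusted p = 0.00187). At 16 h the groups overlapped, with 65.3, 55.7, 174 and 208 CPM in fasted and 125, 282, 86.7 and 213 CPM in fed libraries (-0.46 ± 0.59 (SE), adjusted p = 0.640). At 24 h Onecut1 had 90.8, 73.55, 198 and 231 CPM in fasted and 250.2, 101, 477 and 704 CPM in fed libraries, which overlapped and did not pass the test (-1.35 ± 0.60 (SE), adjusted p = 0.103). The test of a difference between the 4 fasting effects gave F = 3.65, adjusted p = 0.0676 in edgeR, 0.0324 in DESeq2 and 0.00982 in edgeR without replicate 2 of every group.

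Onecut1 is also expressed in bile duct cells, and the summed level of 7 cholangiocyte markers, nearly all of it from Pkhd1, was lower in fasted libraries at all 4 times. The sum was 94.6 to 139 CPM in fasted and 276 to 419 CPM in fed hepatocyte libraries at 3 h, and 65.48 to 97.3 CPM in fasted and 369 to 474 CPM in fed libraries at 8 h. It was 218 to 335 CPM in fasted and 416 to 652 CPM in fed libraries at 16 h, and 118 to 195 CPM in fasted and 328 to 584 CPM in fed libraries at 24 h. These ranges were apart at every time, including 16 and 24 h, where Onecut1 overlapped and was not called. Of the 7 markers 5 were tested, of which 1 was called at 3 h, 2 at 8 h, 1 at 16 h and 2 at 24 h, all lower. Pkhd1, the polycystic kidney and hepatic disease gene, made up nearly all of that sum, with 90.4 to 134 CPM in fasted and 270.1 to 413 CPM in fed libraries at 3 h. The other 6 markers together reached 3.64 to 5.56 CPM in fasted and 5.37 to 6.89 CPM in fed libraries at 3 h, which overlapped. At 8 h their ranges were apart, at 3.80 to 4.68 CPM in fasted and 5.91 to 7.74 CPM in fed libraries. At 16 and 24 h they overlapped. Krt19, a keratin of bile duct cells, was at 0 in 4 of 32 hepatocyte libraries. Mean Pkhd1 in tagged hepatocyte nuclei stood at 1.19 of that in their pools, beside 1.03 for the hepatocyte marker Alb. Krt19, Krt7, Epcam and Spp1 stood at 0.466 to 0.504 of the pools, Cftr at 0.729 and Sox9 at 1.09. Onecut1 averaged 249 ± 242 CPM (SD, n = 32) in tagged hepatocyte nuclei and 204 ± 159.8 CPM (SD, n = 8) in their pools, a log2 difference of 0.24 ± 0.30 (SE), adjusted p = 0.517. The part of bile duct RNA in the Onecut1 result was not tested.

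The promoters of Onecut1, Cebpb, Foxa1 and Creb3l3 are shown because these genes differ in direction under fasting and in the letters found by the same search. Each is the 250 bases before the RefSeq start on GRCm38.p6, read on the gene's strand, with capitals at matches. Onecut1 (chr9:74861671-74861920, plus strand) holds the E-box CACGTG and, on the other strand, the core TGACG of the cAMP response element:
Onecut1: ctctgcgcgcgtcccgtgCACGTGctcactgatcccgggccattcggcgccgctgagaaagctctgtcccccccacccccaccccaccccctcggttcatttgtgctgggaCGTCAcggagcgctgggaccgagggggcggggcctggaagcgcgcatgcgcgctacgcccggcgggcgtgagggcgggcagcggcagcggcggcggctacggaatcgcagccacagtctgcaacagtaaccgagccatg
Cebpb (chr2:167688665-167688914, plus strand) holds that core at 3 places, 1 of them on the other strand:
Cebpb: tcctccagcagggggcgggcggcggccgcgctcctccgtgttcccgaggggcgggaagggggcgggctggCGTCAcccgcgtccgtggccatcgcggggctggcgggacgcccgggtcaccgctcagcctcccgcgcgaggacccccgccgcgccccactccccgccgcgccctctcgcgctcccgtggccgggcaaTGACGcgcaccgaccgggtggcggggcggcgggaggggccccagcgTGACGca
Foxa1 (chr12:57546112-57546361, minus strand) holds the forkhead letters TGTTTAC on the other strand:
Foxa1: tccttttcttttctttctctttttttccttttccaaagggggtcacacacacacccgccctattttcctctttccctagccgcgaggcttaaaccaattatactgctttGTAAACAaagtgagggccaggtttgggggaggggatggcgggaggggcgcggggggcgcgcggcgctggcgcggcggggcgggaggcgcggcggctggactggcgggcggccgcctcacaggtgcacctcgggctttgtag
Creb3l3 (chr10:81098873-81099122, minus strand), at the start that the count table uses, holds the forkhead letters TGTTTGC on the other strand:
Creb3l3: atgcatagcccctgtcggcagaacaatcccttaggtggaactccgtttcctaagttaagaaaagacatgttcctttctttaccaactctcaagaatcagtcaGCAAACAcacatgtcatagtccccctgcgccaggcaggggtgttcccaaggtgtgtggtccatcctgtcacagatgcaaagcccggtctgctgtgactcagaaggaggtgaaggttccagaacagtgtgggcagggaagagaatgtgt

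Both strands were searched for TGACGTCA, the full cAMP response element, which contains the core, and for TGACG, TTGCNNAA (C/EBP), TGTTTAC and TGTTTGC (forkhead), CACGTG and TATAAA. Of 32851 mouse promoters of this length, 17.77% hold TGACG, 6.02% CACGTG, 3.17% TGTTTAC, 4.3% TGTTTGC and 12.37% TATAAA. The full element TGACGTCA (1.55%) and the C/EBP letters TTGCNNAA (9.56%) were in none of the windows of the 8 members with a promoter in the table. TATAAA was found for Cebpa, Foxa3, 1 of 2 starts of Prox1 and 1 of 3 starts of Foxa2. The other start of Prox1 holds TGTTTGC, and the other start of Creb3l3 holds TGACG. A match describes letters and says nothing of binding in these livers.

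The forkhead genes split under fasting. Foxa2, a forkhead factor linked to ketone and bile acid genes in fasted liver, lies at chr2:148042877-148046969 on the minus strand. At 3 h Foxa2 had 8.22, 14.8, 7.49 and 10.6 CPM in fasted hepatocyte libraries, against 21.2, 14.6, 19.2 and 28.9 CPM in fed ones. At 8 h it had 20.4, 11.1, 16.52 and 6.92 CPM in fasted libraries, against 25.1, 23.48, 35.46 and 37.7 CPM in fed ones. The groups overlapped slightly at 3 h, where the highest fasted library exceeded the lowest fed one, and were apart at 8 h. At 24 h Foxa2 had 8.502, 7.94, 11.47 and 10.1 CPM in fasted and 19.8, 15.6, 19.3 and 16.2 CPM in fed libraries, again apart. Foxa2 fell 1.95-fold at 3 h (log2 fold change -0.96 ± 0.25 (SE), adjusted p = 0.00268), 2.11-fold at 8 h (-1.07 ± 0.24 (SE), adjusted p = 9.30e-04) and 1.84-fold at 24 h (-0.88 ± 0.25 (SE), adjusted p = 0.0106). At 16 h it stood at 12.97 to 16.4 CPM in fasted and 14.4 to 20.1 CPM in fed libraries (-0.16 ± 0.24 (SE), adjusted p = 0.705).

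Foxa1, a close paralog at chr12:57540632-57546121, had lower means in fasted libraries at all 4 times but passed the test at 24 h only. There it had 9.16, 10.4, 10.9 and 6.30 CPM in fasted libraries, against 17.7, 17.4, 19.6 and 19.9998 CPM in fed ones, with no overlap, and fell 1.998-fold (-0.999 ± 0.23 (SE), adjusted p = 0.00206). At 3 h Foxa1 had 8.37, 18.8, 9.84 and 11.6 CPM in fasted libraries, against 19.2, 15.2, 18.4 and 18.9 CPM in fed ones. Replicate 2 of the fasted group sat among the fed values, and the difference was -0.50 ± 0.23 (SE), adjusted p = 0.0803; without that library it was -0.75, adjusted p = 0.00771. At 8 and 16 h the log2 fold changes were -0.43 ± 0.22 and -0.19 ± 0.22, the one at 16 h being -0.06 without fasted replicate 3, which stood apart. Whether the Foxa1 effect differs between times was tested and gave F = 2.25, adjusted p = 0.190.

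Foxa3, the third forkhead paralog and a regulator of glucose transport genes in fasted liver, rose at 3 and 24 h, times at which Foxa2 fell. At 3 h Foxa3 (chr7:19013283-19023539) had 52.7, 46.1, 54.2 and 52.9 CPM in fasted hepatocyte libraries, against 21.3, 39.7, 30.4 and 30.2 CPM in fed ones. At 24 h it had 62.7, 76.1, 59.2 and 85.8 CPM in fasted libraries, against 28.9, 42.9, 37.2 and 50.9 CPM in fed ones. All fasted libraries were above all fed ones at both times, and Foxa3 rose 1.76-fold at 3 h (0.82 ± 0.26 (SE), adjusted p = 0.0122) and 1.79-fold at 24 h (0.84 ± 0.26 (SE), adjusted p = 0.0173). The call at 24 h was lost when fasted replicate 4 or fed replicate 1 was left out (adjusted p = 0.0581 and 0.0780). At 8 h Foxa3 ranged over 23.1 to 37.8 CPM in fasted and 21.3 to 51.8 CPM in fed libraries (-0.13 ± 0.26 (SE), adjusted p = 0.716), and at 16 h over 45.6 to 66.4 and 33.9 to 73.2 CPM in these groups (0.17 ± 0.25 (SE), adjusted p = 0.688; 0.094 without fasted replicate 3, which stood apart).

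Among the C/EBP genes, Cebpd had the lowest level per kilobase and the largest fold changes. It encodes the isoform best known from the acute phase and from glucocorticoid treatment, lies at chr16:15887286-15889545 and had 5 to 103 raw counts per hepatocyte library. At 3 h Cebpd had 2.09, 1.67, 2.48 and 1.99 CPM in fasted hepatocyte libraries, against 0.867, 0.779, 0.404 and 0.280 CPM in fed ones. At 8 h it had 0.648, 2.51, 0.738 and 4.56 CPM in fasted libraries, against 0.716, 0.366, 0.659 and 0.490 CPM in fed ones. The groups were apart at 3 h, while at 8 h fasted replicates 2 and 4 lay far above the fed range, replicate 3 just above it and replicate 1 within it. At 24 h Cebpd had 3.89, 3.38, 3.68 and 2.51 CPM in fasted libraries, against 1.15, 1.37, 0.729 and 1.02 CPM in fed ones, again apart. Cebpd rose 3.55-fold at 3 h (1.83 ± 0.45 (SE), adjusted p = 0.00167), 3.72-fold at 8 h (1.90 ± 0.47 (SE), adjusted p = 0.00199) and 3.24-fold at 24 h (1.70 ± 0.42 (SE), adjusted p = 0.00431). Without fasted replicate 4 the value at 8 h was 1.25, adjusted p = 0.0247. At 16 h Cebpd ranged over 0.455 to 1.503 CPM in fasted and 0.395 to 0.677 CPM in fed libraries (0.76 ± 0.48 (SE), adjusted p = 0.296), and without fasted replicate 3, which stood apart, the value was 0.36 (adjusted p = 0.731). Spidr, a DNA repair gene on the opposite strand that overlaps Cebpd by 322 bases, changed by -0.16 at 3 h (adjusted p = 0.254), -0.04 at 8 h (0.823) and 0.06 at 24 h (0.732), and fell by 0.39 at 16 h (0.0129), the 1 time at which it was called. The sources used here do not state whether counting used the strand.

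Cebpb, the isoform induced by glucagon through cAMP and by interleukin-6, was called at 3 h and differed between clock times in fed mice. At 3 h Cebpb (chr2:167688915-167690432) had 5.66, 6.73, 8.89 and 7.13 CPM in fasted hepatocyte libraries, against 2.92, 2.66, 2.66 and 4.76 CPM in fed ones. All fasted libraries were above all fed ones, and Cebpb rose 2.29-fold (1.20 ± 0.33 (SE), adjusted p = 0.00502). At 24 h, which is ZT 12, it had 6.06, 7.60, 5.43 and 9.70 CPM in fasted libraries, against 10.97, 21.3, 7.09 and 10.8 CPM in fed ones. These groups overlapped, and the log2 fold change of -0.79 ± 0.32 (SE), adjusted p = 0.0697, did not pass the test. The value at 24 h moved with single libraries: it was -0.42 (adjusted p = 0.380) without fed replicate 2, but passed without fasted replicate 4 (-0.97, 0.0469) or fed replicate 3 (-1.01, 0.0245), and with the run of library numbers as a term (-0.76, 0.0499). At 8 h the log2 fold change was 0.68 ± 0.33 (SE), adjusted p = 0.108, and at 16 h 0.37 ± 0.36 (SE), adjusted p = 0.520. Tmem189, which overlaps Cebpb by 908 bases on the opposite strand, changed by -0.37 at 3 h (adjusted p = 0.217) and rose by 0.87 at 24 h (adjusted p = 0.00971), and it too differed between times in fed hepatocyte nuclei (adjusted p = 0.00782).

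Cebpb was the 1 member whose fasting effect differed between the 4 times (F = 6.74, adjusted p = 0.00834), where 32.8% of genes tested were called. That call was lost without replicate 1 of every group (adjusted p = 0.0749) and without replicate 2 (0.0590). In fed hepatocyte nuclei alone Cebpb also differed between times (F = 25.13, adjusted p = 2.44e-06), with 2.66 to 4.76 CPM at 3 h, 2.49 to 4.63 at 8 h, 1.05 to 2.97 at 16 h and 7.09 to 21.3 at 24 h. The lowest fed values fell at ZT 4 and the highest at ZT 12, and these 2 groups did not overlap.

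Cebpa, the isoform that maintains the differentiated hepatocyte, fell during fasting. At 8 h Cebpa (chr7:35119293-35121931) had 16.8, 9.57, 11.7 and 7.76 CPM in fasted hepatocyte libraries, against 21.9, 22.1, 19.2 and 29.8 CPM in fed ones. At 24 h it had 10.4, 9.84, 9.94 and 14.1 CPM in fasted libraries, against 20.9, 31.2, 19.6 and 17.4 CPM in fed ones. All fasted libraries were below all fed ones at both times, and Cebpa fell 1.94-fold at 8 h (-0.95 ± 0.28 (SE), adjusted p = 0.00844) and 1.99-fold at 24 h (-0.99 ± 0.28 (SE), adjusted p = 0.0114). Without fed replicate 2 the call at 24 h was lost (-0.80, adjusted p = 0.0597). At 3 h Cebpa ranged over 10.9 to 24.52 CPM in fasted and 17.7 to 25.98 CPM in fed libraries (-0.25 ± 0.28 (SE), adjusted p = 0.496), and at 16 h over 4.51 to 16.1 and 15.1 to 21.03 CPM in these groups (-0.61 ± 0.28 (SE), adjusted p = 0.138). Without fasted replicate 3, which stood apart, the value at 16 h was -0.33 (adjusted p = 0.443).

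Creb3l3 was the only member called at all 4 times in hepatocyte nuclei. At 3 h Creb3l3 (chr10:81084333-81098872, minus strand) had 360.2, 273, 317 and 279 CPM in fasted hepatocyte libraries, against 143, 147, 154 and 165 CPM in fed ones. At 8 h it had 189.5, 283, 264 and 309 CPM in fasted libraries, against 132, 146, 121 and 185 CPM in fed ones. The groups did not overlap at either time, and Creb3l3 rose 2.10-fold at 3 h (1.07 ± 0.15 (SE), adjusted p = 3.39e-06) and 1.86-fold at 8 h (0.89 ± 0.15 (SE), adjusted p = 3.65e-05). At 16 h it had 138, 148, 194 and 203 CPM in fasted libraries, against 138, 108, 106 and 141 CPM in fed ones. At 24 h it had 255, 254, 259 and 226 CPM in fasted libraries, against 169, 217, 162 and 168 CPM in fed ones. The groups overlapped slightly at 16 h and were narrowly apart at 24 h.

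The later rises of Creb3l3 were smaller, at 0.49 ± 0.15 (SE), adjusted p = 0.0234 at 16 h and 0.49 ± 0.15 (SE), adjusted p = 0.0195 at 24 h, although the test of a difference between times did not pass in edgeR (F = 3.77, adjusted p = 0.0610; 0.0345 in DESeq2). Each of these calls was lost on leaving out any of 4 of the 8 libraries, and without hepatocyte 16 h fasted replicate 3, which stood apart, the value was 0.42 (adjusted p = 0.0885). The authors' deposited table lists Creb3l3 with log2 fold changes of 0.49 at 16 h (adjusted p = 0.105) and 0.50 at 24 h (adjusted p = 0.0831), which are not past 0.05. For Foxa1, Foxa2, Foxa3, Onecut1 and Prox1, the other members in the authors' deposited table, the calls at 0.05 were the same as in edgeR at every time. Fed levels of Creb3l3 differed between times (F = 4.73, adjusted p = 0.0323), as did those of Foxa2 (F = 5.05, adjusted p = 0.0255), where 30.1% of genes tested were called. Both calls were lost when some replicates were left out, with adjusted p values of up to 0.427 for Creb3l3 and 0.178 for Foxa2. Fasted levels differed between times for Creb3l3 (F = 11.58, adjusted p = 3.23e-04), Cebpb (F = 7.32, adjusted p = 0.00372), Foxa3 (F = 6.96, adjusted p = 0.00474) and Cebpd (F = 6.83, adjusted p = 0.00508), where 44.9% of genes tested were called. Of these the call of Cebpb was lost without replicate 4 of every group (adjusted p = 0.0678) and that of Cebpd without replicate 2 (0.0659).

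Prox1 did not pass the edgeR test at any time in hepatocyte nuclei with all libraries, and its unadjusted p was not under 0.05 at any of them. This homeodomain factor, which also marks lymphatic endothelium, lies at chr1:190121777-190170680 on the minus strand. At 3 h Prox1 had 603, 764, 526 and 729 CPM in fasted hepatocyte libraries, against 679, 809.7, 935 and 771 CPM in fed ones. The groups overlapped at every time, with log2 fold changes of -0.22 at 3 h (interval -0.70 to 0.25), 0.20 at 8 h (-0.27 to 0.68), 0.47 at 16 h (-0.00 to 0.95) and -0.35 at 24 h (-0.83 to 0.13). Without fed replicate 3 the value at 16 h was 0.78 and was called (adjusted p = 0.0232), and without replicate 3 of every group the fasting effect differed between times (adjusted p = 0.0154). The lymphatic markers Mmrn1 and Pdpn together reached 0.112 to 0.716 CPM in hepatocyte libraries.

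In macrophage nuclei 2 members passed the test at 3 h, both lower, 1 at 8 h, higher, 2 at 16 h, both higher, and 1 at 24 h, lower. Of 13864 genes tested the shares called were 12.4% (7.70% higher and 4.68% lower), 12.8% (7.44% higher and 5.40% lower), 13.7% (7.72% higher and 5.99% lower) and 11.7% (5.31% higher and 6.35% lower). The 10 hepatocyte markers moved beside them, summing to 9694 to 20335 CPM in fasted and 5219 to 8682 CPM in fed macrophage libraries at 3 h. At 8 h their sums were 8361 to 9847 CPM in fasted and 4079 to 5955 CPM in fed libraries, at 16 h 6341 to 7999 and 4537 to 6110.2, and at 24 h 9127 to 13069 and 5253 to 10704. Fasted libraries thus held more hepatocyte marker RNA, with ranges apart from fed ones at 3, 8 and 16 h, and its part in the members' results was not tested.

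**Figure D3:**
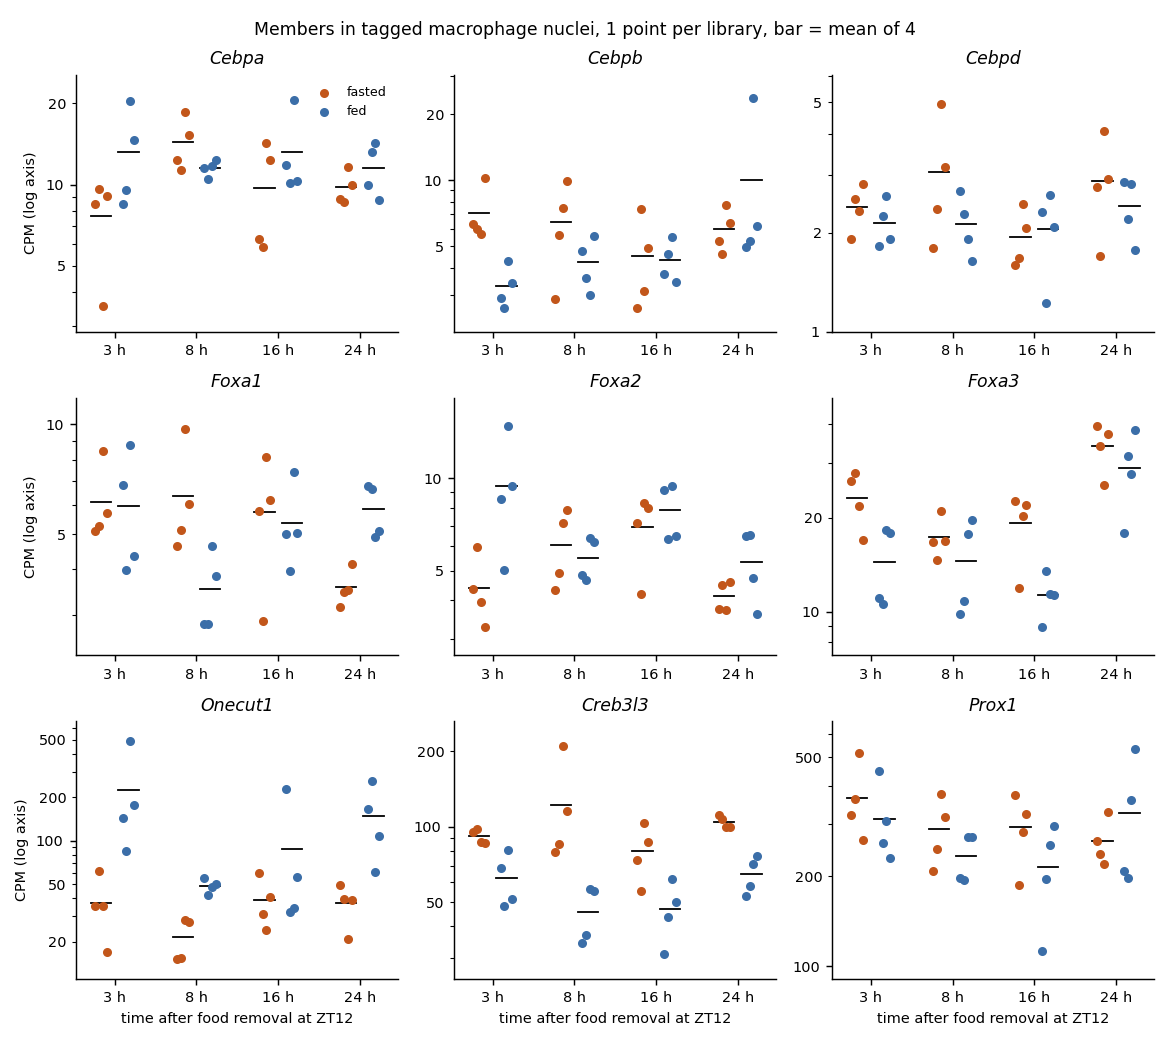
CPM on a log axis for each member in tagged macrophage nuclei, fasted (left, orange) and fed (right, blue) by time, 1 point per library and a bar at the mean of 4. Cebpd at 3 h spans 1.92 to 2.82 CPM in fasted and 1.82 to 2.59 CPM in fed libraries, with no gap between the groups.

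Onecut1 fell in macrophage libraries, in which the hepatocyte markers were higher and the summed cholangiocyte markers, nearly all of them Pkhd1, lower. The cholangiocyte markers other than Pkhd1 together reached 3.64 to 5.45 CPM in fasted and 5.23 to 7.71 CPM in fed macrophage libraries at 3 h. Those ranges overlapped, as they did at 8 and 24 h. Within that sum Krt7 averaged 1.67 CPM in tagged macrophage nuclei and stood at 3.21 of the pools. Krt19 stood at 0.895, Epcam at 0.670, and Sox9, Spp1 and Cftr at 0.363 to 0.461. The cholangiocyte markers summed to 56.4 to 106 CPM in fasted and 98.9 to 169 CPM in fed macrophage libraries at 3 h, and to 44.3 to 76.7 CPM in fasted and 126 to 171 CPM in fed libraries at 8 h. At 24 h the sums were 78.3 to 128 CPM in fasted and 90.7 to 154 CPM in fed libraries; the groups overlapped at 3 and 24 h, and 1, 1 and 0 of the 7 markers were called at these times. At 3 h Onecut1 had 35.3, 61.3, 35.498 and 16.9 CPM in fasted macrophage libraries, against 143, 85.1, 490.4 and 175 CPM in fed ones. At 24 h it had 49.03, 39.6, 20.9 and 38.6 CPM in fasted libraries, against 165, 258, 60.7 and 108 CPM in fed ones. The groups were apart at both times, and Onecut1 fell 6.14-fold at 3 h (-2.62 ± 0.57 (SE), adjusted p = 0.00365) and 4.002-fold at 24 h (-2.001 ± 0.56 (SE), adjusted p = 0.0169). Without fed replicate 3 the value at 3 h was -1.86 (adjusted p = 0.0340), without fasted replicate 3, which stood apart, it was -2.61 (0.0163), and in a fit to the 8 libraries of that time the adjusted p was 0.0615. The call at 24 h was lost without fasted replicate 3 or fed replicate 2. At 8 h Onecut1 ranged over 15.1 to 28.005 CPM in fasted and 41.7 to 55.1 CPM in fed libraries, apart but not past the test (-1.16 ± 0.55 (SE), adjusted p = 0.172), and the fit to the 8 libraries of that time did call it (-1.18, adjusted p = 0.0146).

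Foxa2 fell at 3 h, with 4.34, 5.96, 3.94 and 3.27 CPM in fasted macrophage libraries, against 8.59, 5.02, 14.8 and 9.44 CPM in fed ones (-1.14 ± 0.28 (SE), adjusted p = 0.00930). The highest fasted library was above the lowest fed one, the call was lost without fed replicate 3 (-0.82, adjusted p = 0.0669), and without fasted replicate 3 the value was -1.11 (adjusted p = 0.0309), and in the fit to the 8 libraries of that time the adjusted p was 0.141. Creb3l3 rose 2.71-fold at 8 h, with 79.2, 85.1, 209.7 and 116 CPM in fasted libraries, against 34.2, 36.8, 56.3 and 55.4 CPM in fed ones (1.44 ± 0.27 (SE), adjusted p = 8.34e-04). These groups did not overlap, and the call held without any 1 of the 8 libraries. At 16 h Creb3l3 (0.79 ± 0.26 (SE), adjusted p = 0.0445) and Foxa3 (0.80 ± 0.26 (SE), adjusted p = 0.0411) were called. Those calls were lost without fasted replicate 1, which stood apart (0.82, adjusted p = 0.0825, for Creb3l3 and 0.69, adjusted p = 0.141, for Foxa3), and on leaving out any of 5 other libraries for Creb3l3 and 6 others for Foxa3. At 3 and 24 h Creb3l3 was also higher in every fasted than in every fed macrophage library, with log2 fold changes of 0.52 ± 0.26 (SE), adjusted p = 0.178 and 0.67 ± 0.26 (SE), adjusted p = 0.100, neither past the test. The value at 24 h passed in the fit to its 8 libraries (adjusted p = 0.00805) and with the run of library numbers as a term (0.0251).

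None of the 3 C/EBP genes was called by edgeR in macrophage nuclei at any time. Cebpd had 1.92, 2.53, 2.33 and 2.82 CPM in fasted macrophage libraries at 3 h, against 1.82, 2.25, 2.59 and 1.91 CPM in fed ones, which overlapped (0.13 ± 0.28 (SE), adjusted p = 0.769). Cebpb had 6.30, 5.997, 5.72 and 10.3 CPM in fasted libraries at 3 h, against 2.91, 2.61, 4.31 and 3.41 CPM in fed ones. Those Cebpb values were apart, but the test did not pass (1.07 ± 0.42 (SE), adjusted p = 0.0886); DESeq2 gave an adjusted p of 0.0494. Cebpa changed by -0.82 ± 0.31 at 3 h (adjusted p = 0.0780; -0.59 and 0.279 without fasted replicate 3) and by 0.33 ± 0.31 at 8 h (0.534). Foxa1 reached 0.86 ± 0.30 at 8 h (adjusted p = 0.0562; 0.0343 in DESeq2 and 0.0169 with the run as a term) and -0.73 ± 0.30 at 24 h (adjusted p = 0.120), where the groups were apart. The Foxa1 value at 24 h passed in the fit to its 8 libraries (0.0140) and with the run as a term (0.0319). Prox1 stayed between -0.34 and 0.47 over the 4 times with no call (0.30 at 16 h without fasted replicate 1). For none of the 9 members did the macrophage fasting effect differ between times in edgeR, where 4.65% of genes tested were called; 3 members had an unadjusted p under 0.05, and Foxa1 was called by DESeq2 (0.0336) and with the run as a term (0.0271). Fed macrophage levels differed between times for Foxa3 (F = 11.59, adjusted p = 0.00147), Cebpb (F = 6.60, adjusted p = 0.0203) and Onecut1 (F = 6.21, adjusted p = 0.0255), where 12.8% were called, and fasted levels for Foxa3 (F = 5.94, adjusted p = 0.0127), where 38.1% were called. Leaving out 1 replicate of every group ended the fed call of Cebpb in 3 of 4 cases (adjusted p up to 0.306), that of Onecut1 in 3 of 4 (0.194) and the fasted call of Foxa3 in 3 of 4 (0.0733).

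**Figure D4:**
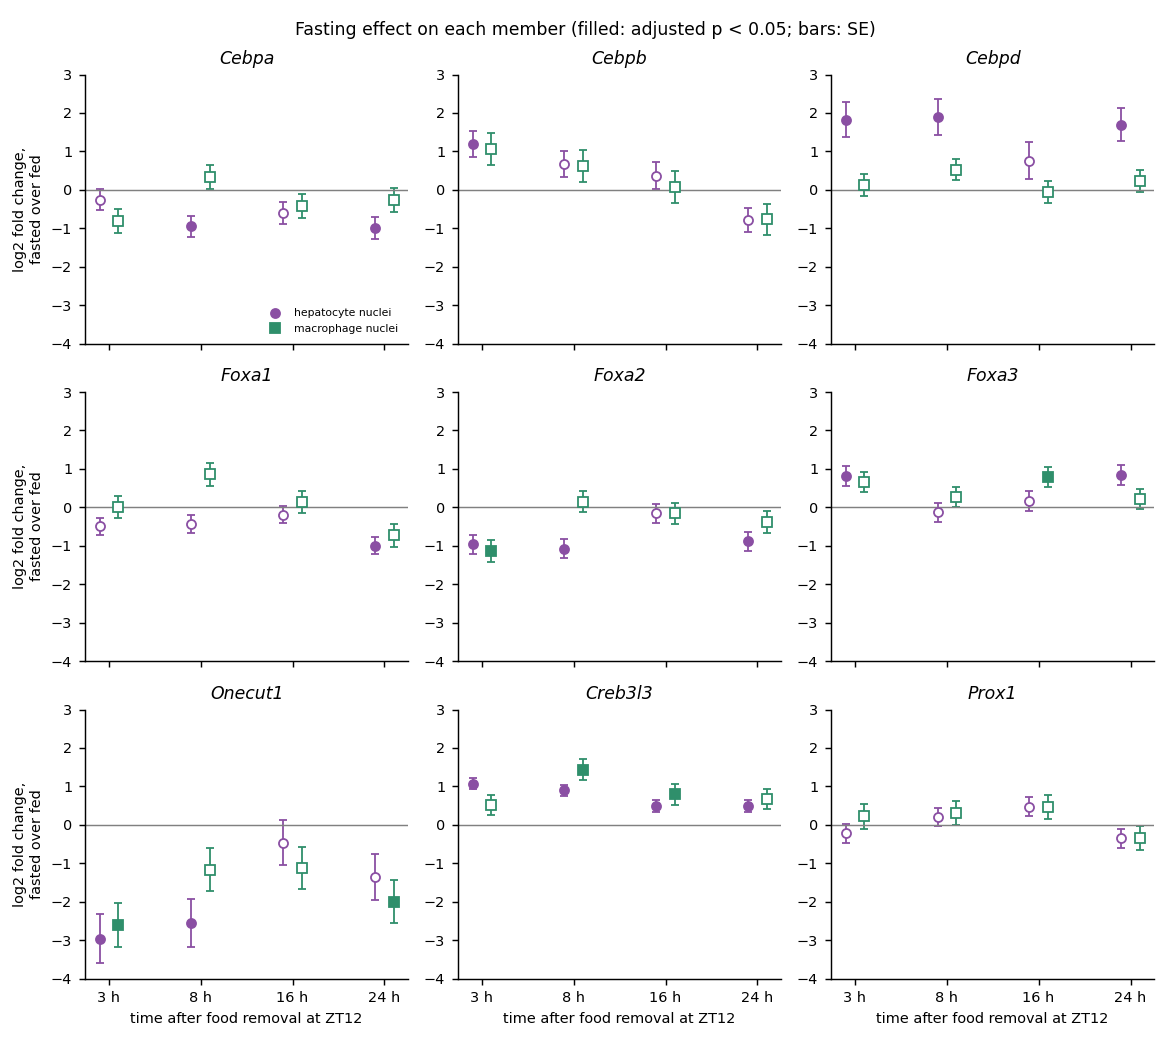
Log2 fold change of fasted over fed for each member at 3, 8, 16 and 24 h in hepatocyte nuclei (circles) and macrophage nuclei (squares), with SE bars and filled symbols at an adjusted p below 0.05. Cebpd lies at 1.83 in hepatocyte and 0.13 in macrophage nuclei at 3 h, while Onecut1 is low in both at 3 h.

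The difference of the fasting effects, hepatocyte minus macrophage, was tested in a fit to all 64 tagged libraries. It passed for 1 member at 3 h, 2 at 8 h and none at 16 or 24 h, where 10.6% (6.20% higher and 4.40% lower), 7.62% (3.86% higher and 3.76% lower), 0.535% (0.407% higher and 0.128% lower) and 4.05% (2.10% higher and 1.95% lower) of 14011 genes were called. Cebpd differed at 3 h by 1.74 ± 0.52 (SE), adjusted p = 0.0229, and its differences at 8 h (1.45 ± 0.53 (SE), adjusted p = 0.0819) and 24 h (1.46 ± 0.50 (SE), adjusted p = 0.0824) had the same sign without passing, although the one at 8 h passed without replicate 3 of every group (2.154, adjusted p = 0.0168). Foxa1 differed at 8 h by -1.21 ± 0.37 (SE), adjusted p = 0.0331 and Foxa2 at 8 h by -1.14 ± 0.37 (SE), adjusted p = 0.0468, both with the lower fasting effect in hepatocyte nuclei. For Foxa1 the effect at 8 h was not called by edgeR in either cell type alone, with -0.43 in hepatocyte nuclei and a rise in macrophage nuclei. At 8 h the hepatocyte markers summed to 8361 to 9847 CPM in fasted and 4079 to 5955 CPM in fed macrophage libraries. The part of hepatocyte RNA in these differences was not tested. In edgeR the counts of members at an unadjusted p under 0.05 were 1 at 3 h, 4 at 8 h, 0 at 16 h and 1 at 24 h, and DESeq2 called 1, 3, 0 and 0 members at these times. Leaving out 1 replicate of every group ended that of Cebpd in 3 of 4 cases, that of Foxa1 in 3 of 4 and that of Foxa2 in 4 of 4. For Onecut1 and Creb3l3, called in both cell types at some times, the test of the difference did not pass at any time.

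In the unpurified pools the mean fasting effect over the 4 times was called for 7 of 9 members, where 36.4% (17.1% higher and 19.3% lower) of 13006 genes were called. Cebpd had 2.24, 2.90, 1.16 and 3.67 CPM in fasted pools of the hepatocyte line at 3, 8, 16 and 24 h, against 0.565, 0.501, 0.980 and 1.21 CPM in fed ones. In the macrophage line the Cebpd values were 2.85, 2.80, 1.2397 and 3.30 CPM in fasted pools, against 0.681, 0.776, 0.487 and 0.796 CPM in fed ones. Cebpd was higher in the fasted pool of all 8 pairs and rose 3.18-fold (1.67 ± 0.18 (SE), adjusted p = 3.71e-05).

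Onecut1 had 33.002, 88.4, 121 and 161 CPM in fasted pools of the hepatocyte line, against 251, 504, 109 and 365 CPM in fed ones. The pair at 16 h was nearly even, and Onecut1 fell 3.98-fold over both lines (-1.99 ± 0.37 (SE), adjusted p = 0.00315). Creb3l3 rose 1.59-fold (0.67 ± 0.06 (SE), adjusted p = 1.83e-05) and was higher in the fasted pool of all 8 pairs. Foxa2 (-0.68 ± 0.11 (SE), adjusted p = 5.68e-04), Cebpa (-0.45 ± 0.11 (SE), adjusted p = 0.00678) and Foxa1 (-0.42 ± 0.08 (SE), adjusted p = 0.00213) fell. Cebpb passed narrowly (0.70 ± 0.25 (SE), adjusted p = 0.0475), and its call was lost when any of 13 of the 16 pools was left out. Foxa3 (0.23 ± 0.19 (SE), adjusted p = 0.394) and Prox1 (-0.07 ± 0.09 (SE), adjusted p = 0.565) did not pass.

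Genes that work with or under these factors were counted in lists, beside shares over all genes tested of 39.9%, 38.7%, 18.1% and 24.0% called at 3, 8, 16 and 24 h in hepatocyte nuclei, and of 12.4% and 12.8% at 3 and 8 h in macrophage nuclei. Of relatives and regulators of C/EBP proteins, 4 higher and 0 lower of 12 tested were called at 3 h in hepatocyte nuclei, 3 higher and 1 lower of 12 tested at 8 h, 1 higher and 1 lower of 12 tested at 16 h and 0 higher and 1 lower of 12 tested at 24 h. The count at 3 h was a smaller share than over all genes. Trib3, a pseudokinase that restrains insulin signalling, rose by 2.15 (log2) at 3 h and 1.92 at 8 h. Trib1, a pseudokinase that directs C/EBPα to degradation, rose by 0.84 at 3 h, and Cebpg by 0.63. Cebpe, a C/EBP gene known from granulocytes, changed by -2.29 at 8 h and -3.26 at 16 h. Of the other factors of the hepatocyte network, 8 higher and 8 lower of 28 tested were called at 3 h, 5 higher and 8 lower of 28 tested at 8 h, 5 higher and 2 lower of 28 tested at 16 h and 4 higher and 4 lower of 28 tested at 24 h. Hnf4a, a nuclear receptor central to hepatocyte identity, rose by 0.86 at 3 h, Ppara, the fatty acid sensor, by 1.18, and Foxo1, the insulin-restrained forkhead factor, by 1.69. Gata4 changed by -1.243 at 3 h, Hnf4g by -1.51 and Xbp1, the factor of the unfolded protein response, by -1.13.

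Known targets were called in both directions, and 4 genes stand on both the C/EBP and the FoxA list. Of C/EBP target genes 9 higher and 4 lower of 18 tested were called at 3 h (median log2 fold change 0.84), 6 higher and 4 lower of 18 tested at 8 h (median -0.14), 2 higher and 1 lower of 18 tested at 16 h (median -0.09) and 2 higher and 6 lower of 18 tested at 24 h (median 0.21). The gluconeogenic genes Pck1 and G6pc rose by 3.34 and 1.51 at 3 h, and Tdo2, which degrades tryptophan, rose by 1.78. Acute phase genes of the same list diverged, as Lcn2 rose by 4.22 and Hp by 2.42 at 3 h while Itih4 changed by -1.20. Orm1 changed by -2.28, a value that its near-identical paralogs make uncertain. Of FoxA targets 6 higher and 2 lower of 13 tested were called at 3 h (median log2 fold change 0.71), 5 higher and 2 lower of 13 tested at 8 h (median 0.34), 3 higher and 0 lower of 13 tested at 16 h (median 0.37) and 1 higher and 1 lower of 13 tested at 24 h (median -0.01). Igfbp1, which binds insulin-like growth factors, rose by 5.63 and Cpt1a, the gate of mitochondrial fatty acid oxidation, by 2.49 at 3 h. Cyp7a1, which controls the rate of bile acid synthesis, changed by -3.53 at 3 h and -4.69 at 8 h.

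Of targets and processing partners of CREB3L3, 6 higher and 4 lower of 16 tested were called at 3 h, 6 higher and 4 lower of 16 tested at 8 h, 3 higher and 3 lower of 16 tested at 16 h and 4 higher and 4 lower of 16 tested at 24 h. Fgf21 rose by 2.35, 4.70, 4.60 and 3.09 at these times. Cidec, a lipid droplet protein, rose by 2.67, 5.40, 5.30 and 3.07. Fgf21 and Cidec had their largest fold changes at 8 and 16 h, and Creb3l3 had its largest at 3 h. The edgeR test of a difference of the Creb3l3 effect between times did not pass (adjusted p = 0.0610). Whether these timings are linked was not tested. Apoa4, an apolipoprotein of triglyceride-rich particles, rose by 2.68 at 8 h and 2.74 at 16 h, and Fads1, a fatty acid desaturase, changed by -1.86 and -1.45 at these times. The protease gene Mbtps1, whose product cleaves CREB3L3, rose by 0.37 at 3 h.

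Of genes of the hormone and cytokine signals upstream, 9 higher and 2 lower of 15 tested were called at 3 h (median 0.95), 4 higher and 2 lower of 15 tested at 8 h, 2 higher and 2 lower of 15 tested at 16 h and 3 higher and 1 lower of 15 tested at 24 h. Fkbp5, a glucocorticoid-induced chaperone, rose by 4.47 in hepatocyte nuclei and by 3.86 in macrophage nuclei at 3 h. Zbtb16, another glucocorticoid-induced gene, rose by 4.17 in hepatocyte nuclei and by 3.83 in macrophage nuclei. Il6ra, the interleukin-6 receptor, rose by 2.04 and Irs2, the insulin receptor substrate, by 2.24 in hepatocyte nuclei, while Gcgr, the glucagon receptor, changed by -0.73 and Nr3c1, the glucocorticoid receptor, by -0.502. In macrophage nuclei 7 higher and 0 lower of 15 tested genes of this list were called at 3 h and 6 higher and 0 lower of 15 tested at 8 h. The corresponding counts at 3 h in macrophage nuclei were 1 higher and 0 lower of 13 tested for C/EBP relatives, 4 higher and 3 lower of 28 tested for network factors, 6 higher and 1 lower of 17 tested for C/EBP targets, 7 higher and 0 lower of 13 tested for FoxA targets and 1 higher and 2 lower of 16 tested for CREB3L3 targets. Alb, Ttr and Tat stand on both the C/EBP and FoxA target lists and among the hepatocyte markers. Those markers summed to 9694 to 20335 CPM in fasted and 5219 to 8682 CPM in fed macrophage libraries at 3 h. The part of hepatocyte RNA in these macrophage counts was not tested.

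The genes whose pattern over the 8 hepatocyte groups was closest to each member were found among 11467 tested genes by the root-mean-square difference of centred mean log2 CPM. Creb3l3 was closest to Ralgapa2 (0.0993) and Dnaja3 (0.118), Cebpd to Pfkfb2 (0.141) and Cdip1 (0.192), and Foxa2 to Fam84b (0.147) and Mdp1 (0.170). Cebpa was closest to Dnajc22 (0.0996) and Zbtb5 (0.119), Foxa1 to Asap3 (0.0967) and Zfp870 (0.110), and Foxa3 to Patz1 (0.153). Cebpb was closest to Pfkfb3 (0.311) and Nampt (0.320), a clock-regulated enzyme of NAD synthesis. Onecut1 had the widest span of the members, 3.92 log2 units over the 8 groups, and was closest to Cish (0.424), a growth hormone-induced inhibitor of cytokine signalling, and Neurl1b (0.498). Members were left out of the search. Prox1 spanned 0.62 log2 units, under the 1 log2 unit required for a match to be named.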

How the data were processed

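Nuclear RNA of tagged hepatocyte nuclei (32 libraries), tagged macrophage nuclei (32) and unpurified liver pools (16) was analysed from the table of raw counts per gene that the authors deposited. Its values are whole numbers with no normalization, per the file headers and the values themselves. STAR 2.4.2a, DESeq2 1.24.0 and mm10 are named in the submitters' processing notes. The sources used here do not state whether counting used the strand. The gene length in the deposited table equals gene end minus start, so levels per kilobase refer to the whole gene span. The authors also deposited, per the file headers, selected genes with a normalized signal per library, which was not used here, and with log2 fold changes and adjusted p-values per time. The 9 members and all lists were chosen with earlier results of these data known.

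Counts were tested with edgeR 4.0.16 (R 4.3.3, limma 3.58.1) by the quasi-likelihood F-test with TMM scaling, robust fitting and a filter (filterByExpr, minimum count 10, total 15). P-values were adjusted by the Benjamini-Hochberg method over all genes tested and called below 0.05. Each tagged fasting contrast used all 32 libraries of its cell type. The difference between cell types used all 64, and tagged nuclei were compared with pools with feeding and time as terms. CPM values, a description, were scaled over all 80 libraries. All 9 members are named throughout, and list genes are named where called. The 2 genes most like each member were sought among those with a mean of at least 1 CPM. Some genes that these rules name are not reported here. Promoters of 250 bases came from RefSeq (GRCm38.p6), which held 8 of the 9 members. Gene overlaps came from GENCODE vM21. The fits were tested on simulated data. Alternatives were DESeq2 1.42.0, RLE scaling, no filter, the 8 libraries of 1 time, the run of library numbers as a term, and leaving out each replicate in turn.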

Additional observations from a re-analysis of the deposited data

Results flagged for a closer look

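Among 144 groups of 4 libraries, 1 library lay far from the other 3 of its group in 9 cases by Dixon's ratio. Chance alone gives this in about 1 in 20 groups. Cebpb had 3 of them. In macrophage nuclei it reached 23.7 CPM in fed replicate 3 at 24 h, and without that library the 24 h fasting effect was 0.12 in place of -0.77 (log2). It was also highest at 10.3 CPM in macrophage 3 h fasted replicate 4 and at 4.76 CPM in hepatocyte 3 h fed replicate 4. Cebpa was highest at 14.1 CPM in hepatocyte 24 h fasted replicate 4 and at 20.5 CPM in macrophage 16 h fed replicate 3. Creb3l3 was lowest at 226 CPM in hepatocyte 24 h fasted replicate 4 and highest at 217 CPM in fed replicate 2 of the same time, so these 2 libraries narrow the gap between the groups. Foxa2 was lowest at 12.97 CPM in hepatocyte 16 h fasted replicate 2, and Onecut1 was highest at 226 CPM in macrophage 16 h fed replicate 1.

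The fasting effect differed between cell types, by a test of the difference in edgeR, for 3 members. Cebpd differed by 1.74 at 3 h (log2, hepatocyte minus macrophage, adjusted p = 0.0229), Foxa1 by -1.21 at 8 h (adjusted p = 0.0331) and Foxa2 by -1.14 at 8 h (adjusted p = 0.0468). Leaving out 1 replicate of every group ended the call of Cebpd in 3 of 4 fits, of Foxa1 in 3 of 4 and of Foxa2 in 4 of 4. The fasting effect of Cebpb in hepatocyte nuclei differed between times with F = 6.74 (adjusted p = 0.00834), a call lost in 2 of 4 such fits.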

How the results depend on the processing

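The 64 called member results were recomputed under 688 alternatives: 612 stayed called, in the same direction where the test has one, 76 lost the call and 0 reversed. The F-tests of differences between times have no direction and so could not reverse. Unless another cause is named, the cause of a change was not tested. Leave-one-out fits and fits to the 8 libraries of 1 time hold fewer samples.

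Fits to the 8 libraries of 1 time called 0 members and 885 genes at 16 h in hepatocyte nuclei (1 and 2343 in the fit to all 32 libraries). In macrophage nuclei they called 0 members and 247 genes at 3 h (2 and 1716), 2 members at 8 h (1), 0 members and 989 genes at 16 h (2 and 1901) and 3 members at 24 h (1). DESeq2 called 4 members with effects that differ between times in hepatocyte nuclei (1 in edgeR), 1 member and 1645 genes in macrophage nuclei (0 and 645), 2 members at 8 h in macrophage nuclei (1), 2 whose fasted macrophage levels differ between times (1), and 133 genes for hepatocyte minus macrophage at 16 h (75). The run of library numbers as a term gave, in macrophage nuclei, 2 members at 8 h, 3 at 24 h, 2 with fasted levels and 1 with effects that differ between times. Without the filter, hepatocyte minus macrophage gave 1 member at 8 h (2) and 48 genes at 16 h (75).

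Leaving out 1 library at a time gave 0 to 1 members and 1485 to 2540 genes at 16 h in hepatocyte nuclei, lowest without fasted replicate 3. In macrophage nuclei it gave 1 to 2 members and 702 to 2720 genes at 3 h (fewest genes without fasted replicate 3), 1 to 2 members and 702 to 1741 genes at 8 h (fewest without fasted replicate 3; 1781 with all), 0 to 2 members and 922 to 2270 genes at 16 h (fewest without fasted replicate 1) and 0 to 1 members at 24 h. Leaving out 1 replicate of every group gave, for hepatocyte minus macrophage, 0 to 1 members and 489 to 1021 genes at 3 h (1485 with all), 0 to 2 members and 302 to 1047 genes at 8 h (1068), 4 to 90 genes at 16 h and 62 to 736 genes at 24 h (567). For hepatocyte nuclei it gave 3676 to 5222 genes with fasted levels that differ between times (5811), 2160 to 3786 with fed levels (3899), and 0 to 2 members and 2264 to 3127 genes with effects (4245). For macrophage nuclei it gave 0 to 1 members and 2945 to 4798 genes with fasted levels (5276), 1 to 3 members and 500 to 2047 genes with fed levels (1771), and 50 to 544 genes with effects (645). For hepatocyte nuclei over pools it gave 3 to 5 members.

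No called result reversed, but 15 uncalled ones did in leave-one-out fits. For hepatocyte minus macrophage, reversals were looked for in Cebpd, Foxa1 and Foxa2 only. In macrophage nuclei the log2 ranges at 16 h were -0.25 to 0.26 for Cebpb, -0.25 to 0.093 for Cebpd, -0.062 to 0.36 for Foxa1 and -0.25 to 0.027 for Foxa2. At 24 h they were -0.99 to 0.12 for Cebpb and -0.52 to 0.019 for Prox1, at 3 h -0.21 to 0.27 for Foxa1 and -0.024 to 0.46 for Prox1, and at 8 h -0.0040 to 0.27 for Foxa2. In hepatocyte nuclei they were -0.024 to 0.56 for Cebpb at 16 h and -0.29 to 0.13 for Foxa3 at 8 h. For hepatocyte minus macrophage they were -0.038 to 0.36 for Foxa2 at 3 h, -0.069 to 0.24 for Foxa2 at 16 h and -0.43 to 0.044 for Foxa1 at 24 h. For fed hepatocyte against fed macrophage nuclei the range was -0.41 to 0.17 for Cebpb.

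The labels give no replicate numbers, and libraries were numbered in accession order. The run of library numbers, used as a term above, is the only grouping that crosses the groups: each of the 4 macrophage runs holds 1 library of each of the 8 groups, and each of the 3 hepatocyte runs holds 1 or 2. The labels do not say what a run shares. Depth limits Cebpd most, at 5 to 103 counts per hepatocyte library.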
